A study of Mus musculus with 12 samples.

Results

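Leukocyte marker genes were followed in keratinocytes that had been sorted from mouse skin wounds with CD45-positive cells excluded. The set holds 43 genes of macrophages, monocytes, Langerhans cells, dendritic cells and T cells, taken by name from the 55315 genes of the count table. They show which libraries carry leukocyte RNA, of which leukocyte type, and how these genes behave in the integrin alpha5 and genotype comparisons. The 12 libraries form 4 groups of 3, namely RORγt-deficient A5-positive, RORγt-deficient A5-negative, wild-type A5-positive and wild-type A5-negative. All mice had been wounded 3 days before. The deficient mice carry a GFP knock-in that removes RORγt, which lymphocytes need to make IL-17, in every cell rather than in keratinocytes alone. Skin of 2 or 3 mice was pooled, from a ring of 0.25 mm around the wound. The library titles do not say which libraries share a pool of mice. Live cells with Epcam and integrin alpha6 were taken after exclusion of CD45, CD31 and CD117. A5-positive cells, bearing integrin alpha5, are assigned by the submitters to the migrating tongue, and A5-negative cells to the adjoining wound edge. The sources used here give no age or sex of the mice.

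Skin holds several leukocytes that can travel with keratinocytes through a digest. Langerhans cells live between keratinocytes, make langerin (Cd207) and MHC class II, and also carry Epcam, the marker used here to pick epithelium. Macrophages and monocytes enter the wound bed, where they take up debris through scavenger receptors and make lysozyme and the C1q subunits of complement. In mouse epidermis the resident T cells are gamma-delta cells, which need CD3 on their surface and Lck for signalling. In RNA from a bulk sample, fewer cells of a type and less RNA per cell cannot be told apart.

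Upstream sequences of the genes were searched for a pair of motifs. PU.1 is the myeloid transcription factor encoded by the member Spi1, and the Y box is a promoter element of MHC class II genes bound by NF-Y. The letters GAGGAAG (PU.1 core) and GATTGG (Y box core) were searched on both strands of RefSeq promoters, GRCm38.p6, from 250 bases before to 50 after each start. A promoter was found for 33 members. The PU.1 core was in 11 of these (33.3%), against 4152 of 27025 genes (15.4%). The Y box core was in 8 of the 33 (24.2%), against 4924 of 27025 (18.2%). The Y box core was in H2-Aa and H2-Eb1 and also in Cd53, Cd163, C5ar1, Nkg7, Cd68 and Trem2, which are not MHC class II genes. H2-Aa and H2-Eb1 were the only MHC class II members with a promoter, so the Y box core was in both but not confined to them. The PU.1 core was missing from 22 of the 33 and was present in the T cell gene Lck, so it did not follow the roles of the members. For 4 members the 250 bases before the start are printed 5′ to 3′ along the gene, with the match in capitals: the Y box core in the genes of the MHC class II chains H2-Aa and H2-Eb1, and the PU.1 core, read on the opposite strand, in Laptm5, a lysosomal protein of blood cells, and Cd207.
H2-Aa chr17:34287824-34288073 (minus strand): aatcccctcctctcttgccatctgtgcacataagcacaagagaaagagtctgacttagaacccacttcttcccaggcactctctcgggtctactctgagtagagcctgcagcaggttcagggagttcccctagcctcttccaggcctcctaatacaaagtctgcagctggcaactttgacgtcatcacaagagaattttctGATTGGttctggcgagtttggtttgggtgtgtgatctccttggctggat
H2-Eb1 chr17:34305617-34305866 (plus strand): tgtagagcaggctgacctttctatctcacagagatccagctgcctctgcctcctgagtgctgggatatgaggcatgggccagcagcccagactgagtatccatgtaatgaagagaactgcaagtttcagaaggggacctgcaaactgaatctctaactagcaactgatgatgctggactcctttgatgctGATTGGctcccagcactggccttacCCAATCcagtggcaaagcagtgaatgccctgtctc
Laptm5 chr4:130913066-130913315 (plus strand): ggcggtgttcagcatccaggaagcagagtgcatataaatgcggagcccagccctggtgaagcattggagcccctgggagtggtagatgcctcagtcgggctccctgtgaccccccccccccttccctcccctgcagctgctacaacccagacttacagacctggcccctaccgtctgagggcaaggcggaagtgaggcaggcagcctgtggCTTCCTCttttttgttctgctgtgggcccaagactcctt
Cd207 chr6:83677858-83678107 (minus strand): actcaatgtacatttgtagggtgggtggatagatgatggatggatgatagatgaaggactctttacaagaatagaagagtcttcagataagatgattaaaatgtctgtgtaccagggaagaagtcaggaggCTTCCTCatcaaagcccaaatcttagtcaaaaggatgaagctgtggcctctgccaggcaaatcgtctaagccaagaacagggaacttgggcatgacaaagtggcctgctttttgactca
Both MHC class II windows hold GATTGG within 60 bases of the start, and that of H2-Eb1 holds it again on the opposite strand. A match is a description of these letters, and binding was not measured.

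Total counts ran from 29259516 to 74474252 per library. The sort genes Epcam (343 to 918 CPM, counts scaled to the same total per library) and Itga6 (567 to 1044 CPM) were abundant in every library. Itga5 had 84.8 to 139 CPM in A5-positive libraries, against 42.4 to 56.3 CPM in A5-negative libraries. Of the excluded markers, Pecam1, which encodes CD31, had 0.649 to 17.0 CPM and Kit, which encodes CD117, had 1.72 to 10.2 CPM. Changes are given as log2 fold changes ± their standard error (SE) from edgeR, an adjusted p is corrected over all 16677 genes tested, and libraries carry the numbers of the labels.

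Leukocyte RNA was highest in A5-negative libraries, but not in each of them. Summed over the 43 members, the CPM was 829, 565 and 1182 in RORγt-deficient A5-positive libraries 1 to 3, against 2149, 456 and 2235 in RORγt-deficient A5-negative libraries 1 to 3. In wild-type mice it was 539, 632 and 1268 in A5-positive libraries, against 6216, 481 and 1304 in A5-negative libraries. Wild-type A5-negative library 1 stood apart, with 0.622% of its counts on the members, while the lowest share was 0.0456%, in RORγt-deficient A5-negative library 2. The A5-positive and A5-negative libraries overlapped in both genotypes, since number 2 had only 456 to 632 CPM in every group.

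The same library was highest for most members. Of the 43 genes, 39 were highest in wild-type A5-negative library 1, where 10.5% of the 12013 genes whose mean log2 CPM reached 1 had their maximum. The exceptions were Cx3cr1 and Nkg7, both highest in RORγt-deficient A5-negative library 3, Lck, highest in RORγt-deficient A5-positive library 3, and Stab1, highest in wild-type A5-positive library 1. The 3 top libraries of Ptprc, which encodes CD45, were wild-type A5-negative library 1 and RORγt-deficient A5-negative libraries 1 and 3, and 38 other members had the same 3. Among the 12013 genes, 2.32% had them. Apbb1ip, Stab1, Cd207 and Lck did not. The members were not held to the minimum mean log2 CPM of 1, and 7 of them had a median CPM below 1.

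**Figure D1:**
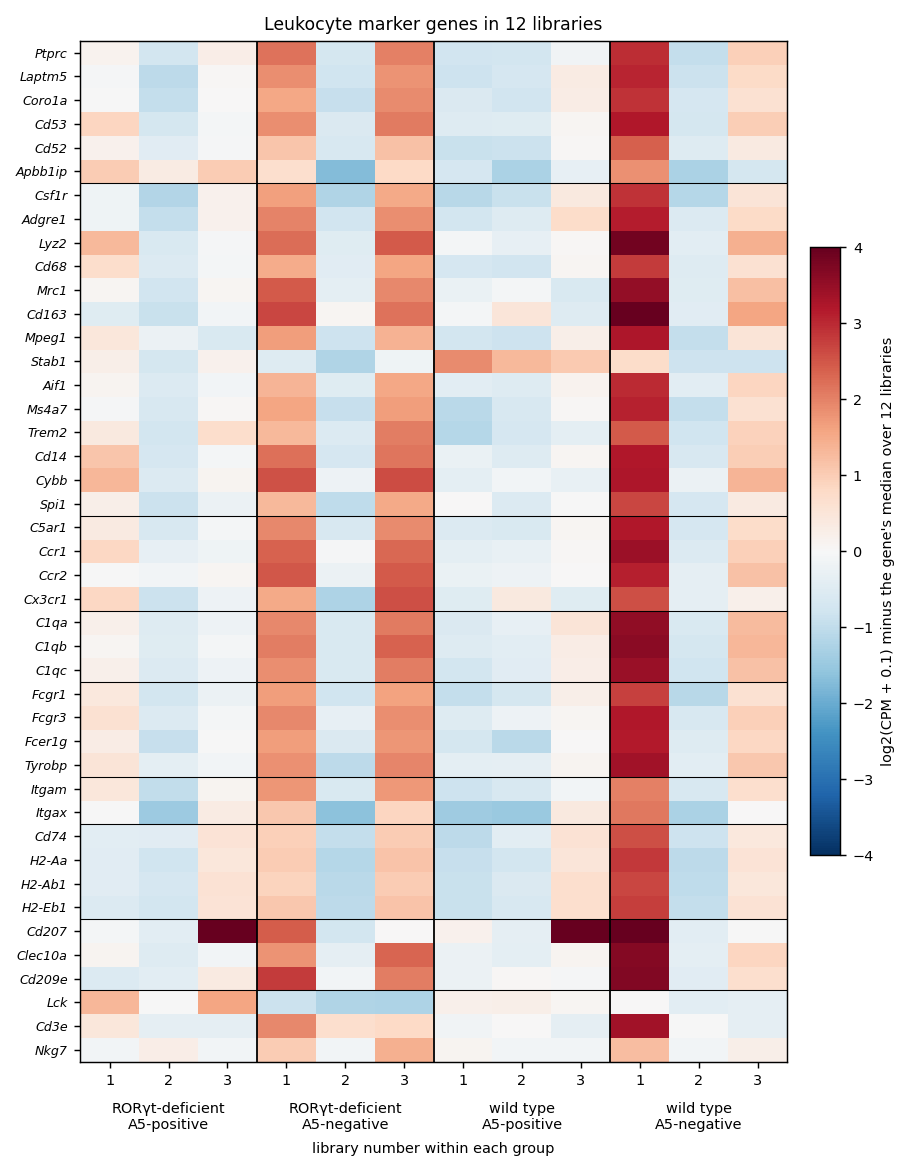
Heat map of the 43 members (rows, grouped by role with thin lines) in the 12 libraries (columns, numbered within each group). Colour is log2(CPM + 0.1) minus the gene's median over the 12 libraries, and values beyond 4 on either side take the end colour. Wild-type A5-negative library 1 holds the highest value for 39 of the 43 genes, while Stab1, Cd207 and Lck have a pattern of their own.

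The pan-leukocyte genes were present in all libraries at unequal levels. Ptprc (GRCm38 chromosome 1, 138062861 to 138175708), the gene of the surface protein used to exclude leukocytes, had 5.99, 3.24 and 6.5 CPM in RORγt-deficient A5-positive libraries, against 25, 3.31 and 22.3 CPM in RORγt-deficient A5-negative libraries. It had 3.12, 3.20 and 4.92 CPM in wild-type A5-positive libraries, against 42.4, 2.75 and 10.7 CPM in wild-type A5-negative libraries. The lowest value rests on 97 counts, so CD45 transcript was detected in every library although CD45-positive cells had been excluded. Laptm5 followed it closely, with a count of 3.17 to 5.5 for each count of Ptprc over the 12 libraries. Summed over the 6 pan-leukocyte members (Ptprc, Laptm5, the actin regulator Coro1a, the tetraspanin Cd53, Cd52 and Apbb1ip) the range was 25.9 to 383 CPM.

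Macrophage and monocyte genes held the second largest sum. Lyz2 (chromosome 10, 117277331 to 117282321), lysozyme of macrophages and neutrophils, had 83.2, 21.8 and 32.1 CPM in RORγt-deficient A5-positive libraries, against 156, 24.1 and 182 CPM in RORγt-deficient A5-negative libraries. In wild-type mice it had 31.5, 26.4 and 34.9 CPM in A5-positive libraries, against 487, 24.7 and 90.0 CPM in A5-negative libraries. Every number 2 library lay between 21.8 and 26.4 CPM, whatever its group. Csf1r, the receptor for macrophage colony-stimulating factor, had 12 to 30.9 CPM in RORγt-deficient A5-positive libraries, against 11.8 to 85.0 CPM in RORγt-deficient A5-negative ones. In wild-type mice its range was 12.6 to 36.3 CPM in A5-positive and 12.4 to 205 CPM in A5-negative libraries. Mrc1, the mannose receptor of tissue macrophages, reached 85.5 CPM, and Cd163, a haemoglobin scavenger receptor, 18.5 CPM, both in wild-type A5-negative library 1.

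The receptors, complement and Fc genes traced the same libraries. C1qa (chromosome 4, 136895917 to 136898803), a chain of C1q, had 6.79, 4.07 and 5.01 CPM in RORγt-deficient A5-positive libraries, against 22.6, 3.76 and 24.9 CPM in RORγt-deficient A5-negative libraries. Wild-type A5-positive libraries had 3.89, 4.64 and 8.41 CPM, against 69.0, 3.77 and 14.1 CPM in wild-type A5-negative libraries. The other chains kept step, C1qb at 1.55 to 2.17 counts and C1qc at 0.984 to 1.2 counts for each count of C1qa. Summed CPM ran from 7.55 to 110 for the chemoattractant receptors Ccr1, Ccr2, C5ar1 and Cx3cr1, and from 7.28 to 108 for the Fc receptors Fcgr1 and Fcgr3 with the signalling adaptors Fcer1g and Tyrobp. The integrin genes Itgam (CD11b) and Itgax (CD11c) together had 2.35 to 23.5 CPM. Cx3cr1 was low everywhere, with 0 to 68 counts per library.

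MHC class II genes made up the largest sum and were the least unequal between libraries outside wild-type A5-negative library 1. Cd74, the invariant chain that guides MHC class II molecules to the endosome, had 249, 244 and 486 CPM in RORγt-deficient A5-positive libraries, against 644, 169 and 674 CPM in RORγt-deficient A5-negative libraries. It had 161, 249 and 489 CPM in wild-type A5-positive libraries, against 1977, 184 and 438 CPM in wild-type A5-negative libraries. H2-Aa (chromosome 17, 34282744 to 34287823) had 51.9, 40.7 and 96.2 CPM in RORγt-deficient A5-positive libraries, against 144, 32.1 and 156 CPM in RORγt-deficient A5-negative libraries. Its wild-type values were 37.6, 42.0 and 99.0 CPM in A5-positive libraries, against 502, 34.5 and 104 CPM in A5-negative libraries. In both genotypes library 3 was the highest of the A5-positive libraries for Cd74 and H2-Aa. The chains moved together, with 0.167 to 0.254 counts of H2-Aa for each count of Cd74.

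Cd207 went its own way. This gene (chromosome 6, 83671215 to 83677857) encodes langerin, which defines Langerhans cells and a subset of dermal dendritic cells. It had 2.01, 1.58 and 39.4 CPM in RORγt-deficient A5-positive libraries, against 11.9, 1.24 and 2.18 CPM in RORγt-deficient A5-negative libraries. In wild-type mice it had 2.42, 1.63 and 54.5 CPM in A5-positive libraries, against 76.9, 1.56 and 2.10 CPM in A5-negative libraries. Langerin transcript was thus high in 4 libraries, namely number 3 of both A5-positive groups and number 1 of both A5-negative groups, and at 1.24 to 2.42 CPM in the other 8. The C-type lectins Clec10a and Cd209e, found on macrophages and dermal dendritic cells, did not share this and peaked with Ptprc, at 11.6 and 6.76 CPM in wild-type A5-negative library 1.

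**Figure D2:**
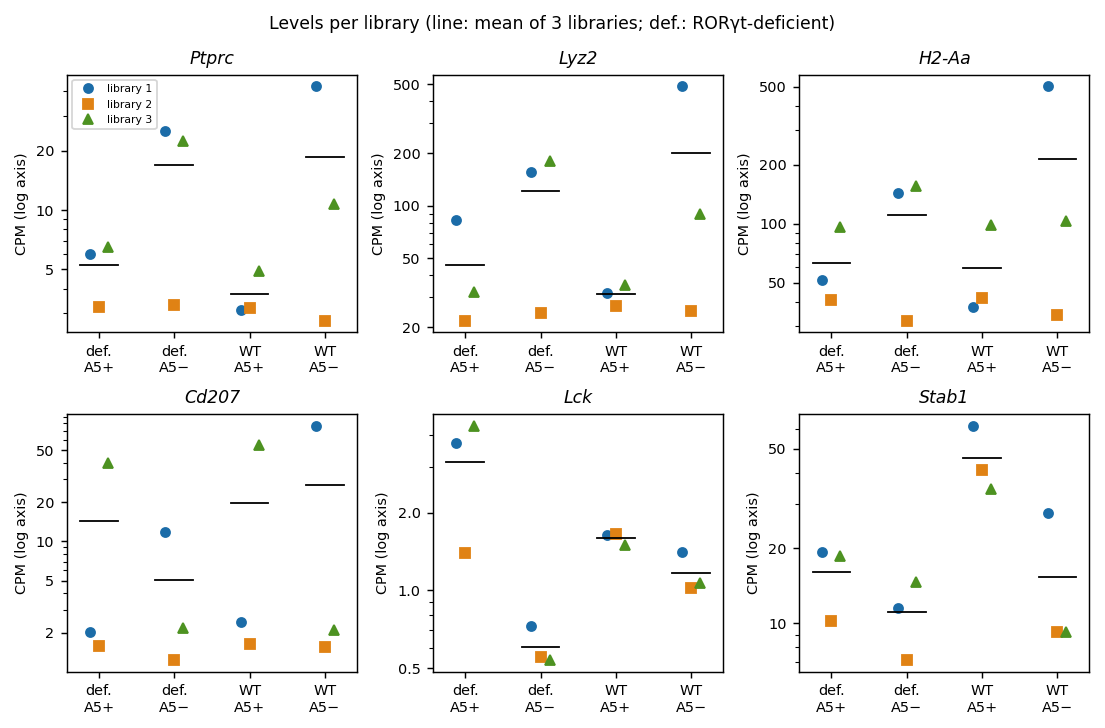
CPM (log axis) of 6 members in each library, by group, with A5-positive (A5+) left of A5-negative (A5−) cells and RORγt-deficient (def.) left of wild type (WT). Marks give the library number and lines the mean of 3 libraries. Library 2 is the lowest or close to it in all 4 groups for Ptprc, Lyz2 and H2-Aa, Cd207 is high in library 3 of A5-positive and library 1 of A5-negative cells, and Lck separates the RORγt-deficient A5 groups.

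The ratio of counts within a library shows the makeup of the leukocyte RNA without its amount. For each count of Ptprc the libraries held 4.93 to 13.9 counts of Lyz2, 3.40 to 7.37 of Csf1r, 0.771 to 1.71 of C1qa and 0.972 to 2.18 of Mrc1. These ratios differed by less than 3-fold between any pair of libraries, while Ptprc itself spanned 2.75 to 42.4 CPM. Cd207 ranged from 0.0980 counts for each count of Ptprc in RORγt-deficient A5-negative library 3 to 11.1 in wild-type A5-positive library 3, which is 113-fold. That wild-type library had the highest ratios of Csf1r, C1qa, Cd74 and H2-Aa to Ptprc as well. RORγt-deficient A5-negative libraries 1 and 3 were close in Ptprc and Lyz2 and differed in langerin. Of these, library 1 held 0.474 counts of Cd207 for each count of Ptprc, near the median of 0.498 over all libraries. The other libraries with high langerin lay above it, with 6.07 in RORγt-deficient A5-positive library 3 and 1.81 in wild-type A5-negative library 1. Stab1 ranged from 0.461 to 19.9 and Lck from 0.0241 to 0.669 counts for each count of Ptprc. Both were lowest where Ptprc, the divisor, was high, as holds for a gene whose level does not follow Ptprc.

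**Figure D3:**
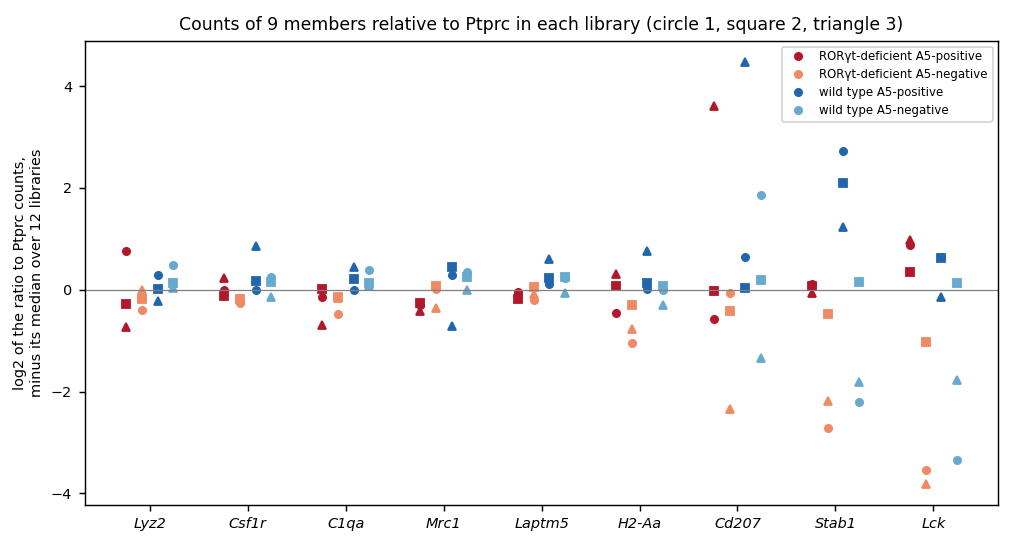
Counts of 9 members divided by the counts of Ptprc in the same library, as log2 minus the median over 12 libraries. Colours give the group and marks the library number. Lyz2, Csf1r, C1qa, Mrc1 and Laptm5 stay close to 0, Cd207 spans a 113-fold range, and Stab1 and Lck fall low in the A5-negative libraries with most Ptprc.

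Of the T and NK cell members, Cd3e and Nkg7 were nearly absent. Cd3e, a chain of the T cell receptor complex, had 4, 0 and 0 counts in RORγt-deficient A5-positive libraries, against 29, 4 and 4 counts in RORγt-deficient A5-negative libraries. It had 1, 1 and 0 counts in wild-type A5-positive libraries, against 63, 1 and 0 counts in wild-type A5-negative libraries. A count of 0 allows up to 0.0403 to 0.103 CPM, depending on the library. Nkg7, a granule protein of cytotoxic lymphocytes, had at most 9 counts. Neither gene passed the filter on low counts, so 41 of the 43 members were tested.

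Among leukocyte genes outside the set, several defining genes of other lineages were at or near 0, but the sums of their lists were not. The T cell genes Cd3d (at most 0.0671 CPM), Cd3g (at most 0.310 CPM) and Trdc, the constant gene of the delta chain (at most 0.523 CPM), the IL-17 genes Il17a and Il22 (0 counts in all libraries), the neutrophil genes Ly6g (at most 0.0301 CPM) and Elane (0 counts), and the mast cell gene Cpa3 (at most 0.133 CPM) were so in all 12 libraries. The 19 further T cell genes summed to 11.7 to 16.9 CPM in RORγt-deficient A5-positive libraries, against 10.6 to 13 CPM in RORγt-deficient A5-negative ones, and to 13.2 to 19.2 CPM in wild-type A5-positive libraries, against 12.9 to 17.2 CPM in wild-type A5-negative ones. Trbc2, at 3.29 to 13.9 CPM, gave the largest part in 10 of the 12. The 13 genes of the neutrophil list summed to 6.54 to 23.3 CPM in RORγt-deficient A5-positive libraries, against 8.13 to 45.3 CPM in RORγt-deficient A5-negative ones, and to 12.8 to 17.9 CPM in wild-type A5-positive libraries, against 11.3 to 53.6 CPM in wild-type A5-negative ones. Clec4e, a lectin that macrophages also make, had 1.93 to 26.0 CPM, and the chemokine receptor Cxcr2 had 2.11 to 11.5 CPM. The B cell list summed to 0.683 to 14.0 CPM and was highest in wild-type A5-negative library 1, where Ighm, the heavy chain of immunoglobulin M, had 12.8 CPM. The mast cell list summed to 1.29 to 13.9 CPM, of which Hdc, the enzyme that makes histamine, had 1.18 to 13.9 CPM. Several dendritic cell genes followed Ptprc, among them Ccr7, the receptor that takes dendritic cells to lymph nodes. It had 2.58, 2.41 and 2.55 CPM in RORγt-deficient A5-positive libraries, against 24.8, 3.21 and 23.9 CPM in RORγt-deficient A5-negative libraries. Its wild-type values were 3.12, 3.23 and 8.61 CPM in A5-positive libraries, against 54.6, 2.75 and 10.8 CPM in A5-negative libraries. Clec9a, a gene of the cross-presenting subset, was at most 0.209 CPM.

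Averaged over the genotypes, 17 of 41 tested members fell in A5-positive relative to A5-negative cells and 2 rose. Over all genes the test called 18.2%, with 6.35% lower and 11.9% higher. The median change of the members was -1.77, against 0.01 for all genes. Ptprc fell by 1.97 ± 0.58 (edgeR adjusted p = 0.0364), Lyz2 fell by 2.02 ± 0.64 (edgeR adjusted p = 0.0487), Mrc1 fell by 2.22 ± 0.59 (edgeR adjusted p = 0.0244) and C1qa fell by 2.00 ± 0.60 (edgeR adjusted p = 0.0393). The other 13 that fell had changes between -2.73 (Cd163) and -1.71 (Aif1). Of the pan-leukocyte genes Laptm5 fell by 1.85 ± 0.59 (edgeR adjusted p = 0.0470). Of the macrophage genes Cd163 fell by 2.73 ± 0.67 (edgeR adjusted p = 0.0177), Cybb, the oxidase subunit of phagocytes, fell by 1.94 ± 0.57 (edgeR adjusted p = 0.0371) and Aif1 fell by 1.71 ± 0.53 (edgeR adjusted p = 0.0445). Among the chemoattractant receptors Ccr1 fell by 2.01 ± 0.58 (edgeR adjusted p = 0.0358), Ccr2 fell by 2.07 ± 0.53 (edgeR adjusted p = 0.0219) and C5ar1, the receptor for complement C5a, fell by 1.87 ± 0.58 (edgeR adjusted p = 0.0436). The remaining C1q chains fell with C1qa, C1qb by 2.17 ± 0.61 (edgeR adjusted p = 0.0311) and C1qc by 2.05 ± 0.60 (edgeR adjusted p = 0.0364). Of the Fc genes Fcgr3 fell by 1.77 ± 0.55 (edgeR adjusted p = 0.0456) and Fcer1g fell by 1.91 ± 0.57 (edgeR adjusted p = 0.0374), and of the lectins Clec10a fell by 2.25 ± 0.64 (edgeR adjusted p = 0.0326) and Cd209e fell by 2.52 ± 0.71 (edgeR adjusted p = 0.0311).

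No MHC class II gene passed in this comparison (0 of 4, edgeR adjusted p = 0.124 to 0.187). Cd74 had a change of -1.04 ± 0.52 (edgeR adjusted p = 0.174) and H2-Aa one of -1.30 ± 0.57 (edgeR adjusted p = 0.124). Cd207 had a change of 0.52 ± 1.18 (edgeR adjusted p = 0.789), the only lectin with a positive one. With the library number as a block the 4 MHC class II genes and Cd207 did not pass either. The missing call of H2-Aa depended on the setting. Over the alternative fits named below, its adjusted p (edgeR, DESeq2 or voom) ran from 0.027 to 0.375. That of Cd74 ran from 0.0596 to 0.499 and that of Cd207 from 0.594 to 0.962.

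These calls moved with single libraries, and so did those over all genes. When each of the 3 RORγt-deficient A5-positive libraries was left out in turn, in the order of their numbers, 2, 7 and 1 members fell, where 3.37%, 11.5% and 2.78% of all genes did. For the RORγt-deficient A5-negative libraries the members were 2, 29 and 3 (3.94%, 4.87% and 4.51% of all genes). For the wild-type A5-positive libraries they were 1, 3 and 8 (2.34%, 4.96% and 5.43%), and for the wild-type A5-negative libraries 3, 32 and 10 (6.43%, 3.93% and 2.77%). The count of members and the share of all genes did not move together, since 32 members fell where 3.93% of all genes did and 7 where 11.5% did. Without wild-type A5-negative library 1, the one with most leukocyte RNA, the 3 were Ccr2, Cd163 and Mrc1. With the library number as a block, 27 members fell (15.5% of all genes). They were all 17 above with Coro1a, Cd53, Cd52, Adgre1, Cd68, Trem2, Cd14, Spi1, Tyrobp and Itgam, and leaving out 1 library then gave 3 to 32 (10.5% to 16.5% of all genes). Of the members added by the block, Itgam (edgeR adjusted p = 0.0147) kept the call without any single library. The others (edgeR adjusted p = 0.0227 to 0.0429) each lost it without any 1 of 4 to 7 libraries. With a block for each genotype and number instead, 10 members fell (14.8% of all genes), namely 9 of the 17 and Itgam. Laptm5, Aif1, C5ar1, C1qa, C1qb, C1qc, Fcgr3 and Cd209e then lost the call (edgeR adjusted p = 0.0516 to 0.0751). With voom quality weights none fell at an adjusted p under 0.05 (9.11% of all genes), and 11 members, 2 of them higher, had an unadjusted p under 0.05 (38% of all genes).

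**Figure D4:**
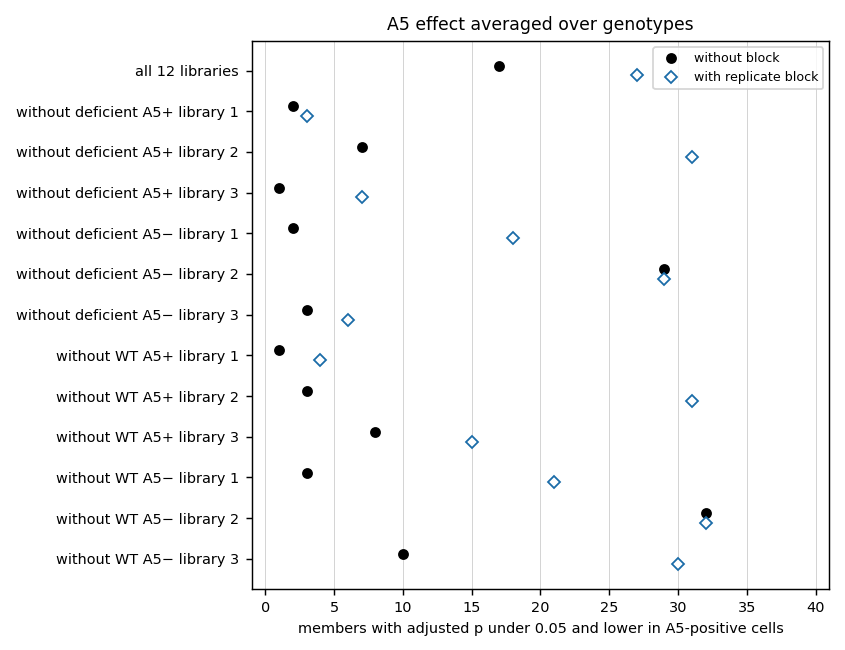
Number of members, of 41 tested, with an edgeR adjusted p under 0.05 and lower in A5-positive cells, averaged over genotypes, with all 12 libraries and with 1 library left out. Circles are fits without and diamonds fits with the library number as a block. With all libraries the values are 17 without the block and 27 with it, and with 1 left out they run from 1 to 32.

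Library numbers split the A5 difference. For number 1, 39 of 42 members with counts were lower in the A5-positive than in the A5-negative RORγt-deficient library, and 41 of 43 in wild-type mice, with median log2 ratios of -1.38 and -3.65. For number 3 the counts were 37 of 41 (median -1.81) in RORγt-deficient and 33 of 41 (median -0.75) in wild-type mice. For number 2 they were 23 of 40 (median -0.08) in RORγt-deficient mice and 7 of 41 (median 0.19) in wild-type mice, where 34 were higher in A5-positive cells. Most members were thus lower in A5-positive cells in the pairs numbered 1 and 3, and the median was near 0 in those numbered 2.

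**Figure D5:**
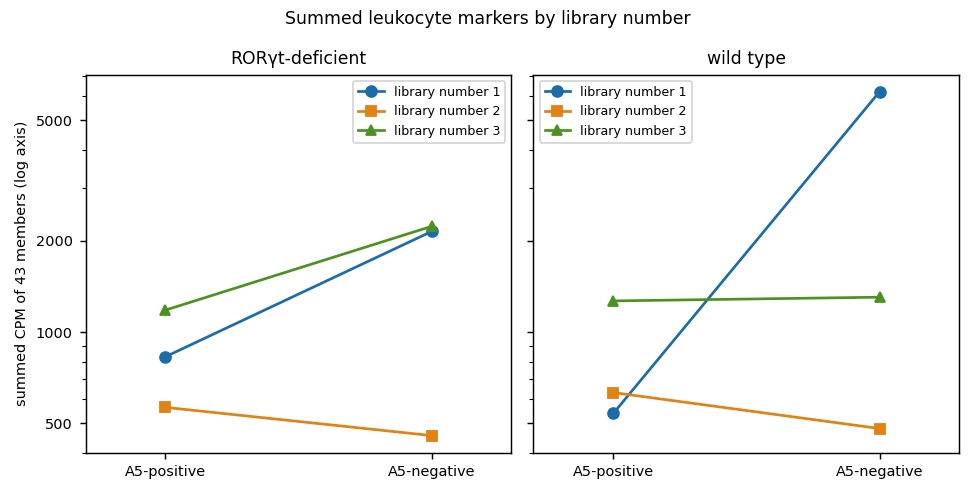
Summed CPM of the 43 members (log axis) in A5-positive and A5-negative libraries of each genotype, with lines joining libraries of the same number. Numbers 1 and 3 are higher in A5-negative cells, most of all number 1 of wild-type mice (539 against 6216 CPM) and least number 3 of wild-type mice (1268 against 1304 CPM), and number 2 is slightly lower.

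Within each genotype few members passed. In wild-type mice none of 41 passed in edgeR, where 3.45% of all genes did. An unadjusted p under 0.05 was reached by 31 members (20.5% of all genes), DESeq2 called 7 (8.72%) and voom 1 (5.93%). The median change was -2.12. With wild-type A5-negative library 1 left out it was -0.53. Ptprc changed by -2.25 ± 0.83 (edgeR adjusted p = 0.156), Lyz2 by -2.61 ± 0.93 (edgeR adjusted p = 0.146), Mrc1 by -2.51 ± 0.84 (edgeR adjusted p = 0.124) and C1qa by -2.29 ± 0.85 (edgeR adjusted p = 0.161). For Cd74 the value was -1.46 ± 0.74 (edgeR adjusted p = 0.284), for H2-Aa -1.77 ± 0.81 (edgeR adjusted p = 0.244) and for Cd207 -0.39 ± 1.65 (edgeR adjusted p = 0.912). Every one of these 7 genes had groups that overlapped. Over the set, 2 members were without overlap and higher in A5-positive cells, namely Stab1 and Lck (15.9% of all genes), and 0 were lower (9.12%), while the test called 0.33% of all genes lower.

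In RORγt-deficient mice 1 of 41 passed, which was Lck, where 5.52% of all genes passed (4.56% higher). The median change was -1.38. Ptprc changed by -1.70 ± 0.81 (edgeR adjusted p = 0.241), Lyz2 by -1.42 ± 0.89 (edgeR adjusted p = 0.367), Mrc1 by -1.92 ± 0.82 (edgeR adjusted p = 0.200) and C1qa by -1.70 ± 0.84 (edgeR adjusted p = 0.257). For Cd74 the value was -0.63 ± 0.73 (edgeR adjusted p = 0.638), for H2-Aa -0.84 ± 0.79 (edgeR adjusted p = 0.555) and for Cd207 1.42 ± 1.70 (edgeR adjusted p = 0.651). Without overlap were Lck, higher in A5-positive cells (14.3% of all genes), and Cd163, lower (11.3%). With the block and without wild-type A5-negative library 1, 17 members passed (17% of all genes). That library lies outside this comparison but enters the estimates of spread and of the block effects.

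Lck rose in A5-positive cells of RORγt-deficient mice. The gene (chromosome 4, 129548344 to 129573641) encodes a kinase of T cell receptor signalling. It had 3.72, 1.40 and 4.35 CPM in RORγt-deficient A5-positive libraries, against 0.725, 0.552 and 0.538 CPM in RORγt-deficient A5-negative libraries. It had 1.64, 1.66 and 1.5 CPM in wild-type A5-positive libraries, against 1.41, 1.02 and 1.06 CPM in wild-type A5-negative libraries. The A5 groups did not overlap in either genotype. The rise was 2.32 ± 0.39 in RORγt-deficient mice (edgeR adjusted p = 0.00450) and 1.41 ± 0.27 averaged over genotypes (edgeR adjusted p = 0.00518), while wild-type mice gave 0.49 ± 0.38 (edgeR adjusted p = 0.475). The difference between the genotypes was 1.83 ± 0.54 (edgeR adjusted p = 0.9999 for the interaction). Both calls held without any single library (edgeR adjusted p = 0.000436 to 0.0301 in RORγt-deficient mice). In the RORγt-deficient A5-positive libraries where Lck was highest, Cd3e had 4 and 0 counts and Cd3d had 0. Summed fibroblast markers were 14852, 9392 and 16149 CPM in RORγt-deficient A5-positive libraries, against 495, 50.0 and 76.2 CPM in RORγt-deficient A5-negative libraries. In wild-type mice the sums were 3732, 5821 and 8120 CPM in A5-positive libraries, against 205, 76.0 and 226 CPM in A5-negative libraries. Lck was not called in the wild-type mice, and the part of fibroblast RNA in the Lck result was not tested.

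Stab1 rose in A5-positive cells averaged over genotypes. The gene (chromosome 14, 31139013 to 31168641) encodes stabilin-1, a scavenger receptor of macrophages and of some endothelial cells. It had 19.4, 10.2 and 18.6 CPM in RORγt-deficient A5-positive libraries, against 11.5, 7.13 and 14.7 CPM in RORγt-deficient A5-negative libraries. It had 62.1, 41.2 and 34.6 CPM in wild-type A5-positive libraries, against 27.8, 9.19 and 9.20 CPM in wild-type A5-negative libraries. The wild-type A5 groups did not overlap, and the RORγt-deficient ones did. The averaged rise was 1.07 ± 0.30 (edgeR adjusted p = 0.0287). It lost the call without 7 libraries taken singly, namely RORγt-deficient A5-positive 1 or 3, RORγt-deficient A5-negative 1 or 2, wild-type A5-positive 1 and wild-type A5-negative 2 or 3 (changes 0.92 to 1.04, edgeR adjusted p = 0.0621 to 0.0783). With the block it kept the call without any single library.

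Within wild-type mice Stab1 changed by 1.64 ± 0.42 (edgeR adjusted p = 0.0567), and with the block it rose by 1.74 ± 0.30 (edgeR adjusted p = 0.00514). In RORγt-deficient mice it changed by 0.50 ± 0.42 (edgeR adjusted p = 0.499), and the difference between the genotypes was -1.14 ± 0.59 (edgeR adjusted p = 0.9999). With the block Fcer1g, the common chain of Fc receptors, fell in wild-type mice by 1.91 (edgeR adjusted p = 0.0431), so that 2 members passed there, where 14.4% of all genes did (8.76% higher and 5.59% lower). The Fcer1g call was lost without any 1 of 10 libraries (edgeR adjusted p = 0.0509 to 0.211), and held without RORγt-deficient A5-negative library 2 or wild-type A5-negative library 2. With a block for each genotype and number Fcer1g did not pass (edgeR adjusted p = 0.0901), and Stab1 did. Summed endothelial markers were 63.9, 4.22 and 4.14 CPM in wild-type A5-positive libraries, against 23.3, 6.30 and 3.48 CPM in wild-type A5-negative libraries. Stab1 was highest in wild-type A5-positive library 1, at 62.1 CPM, and so was the endothelial sum, at 63.9 CPM. In wild-type A5-positive libraries 2 and 3, where Stab1 had 41.2 and 34.6 CPM, Pecam1 had 0.995 and 0.649 CPM. The part of endothelial RNA in the Stab1 result was not tested. Summed fibroblast markers were 3732, 5821 and 8120 CPM in wild-type A5-positive libraries, against 205, 76.0 and 226 CPM in wild-type A5-negative libraries, and their part in the Stab1 result was not tested.

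Genotype was compared within each A5 fraction. In A5-positive cells none of 41 members passed in edgeR (0.006% of all genes passed). An unadjusted p under 0.05 was reached by 2 members (15% of all genes), DESeq2 called 1 (2.96%) and voom 0 (0.03%). The median change, RORγt-deficient relative to wild type, was 0.28. Its direction turned with the library number. For number 1, 38 of 42 members were higher in the RORγt-deficient library, against 12 of 41 for number 2 and 11 of 41 for number 3. The median log2 ratios were 0.94, -0.07 and -0.13. Ptprc changed by 0.50 ± 0.81 (edgeR adjusted p = 0.796), Lyz2 by 0.58 ± 0.88 (edgeR adjusted p = 0.786), Mrc1 by 0.16 ± 0.81 (edgeR adjusted p = 0.943) and C1qa by -0.07 ± 0.83 (edgeR adjusted p = 0.978). Cd74 had 0.14 ± 0.72 (edgeR adjusted p = 0.944), H2-Aa 0.09 ± 0.79 (edgeR adjusted p = 0.968), Cd207 -0.44 ± 1.66 (edgeR adjusted p = 0.921) and Lck 0.98 ± 0.37 (edgeR adjusted p = 0.266).

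Stab1 and Apbb1ip were the 2 members whose genotype groups did not overlap in A5-positive cells. Apbb1ip, an adaptor that activates integrins in leukocytes, had 2.33, 1.40 and 2.31 CPM in RORγt-deficient A5-positive libraries, against 0.645, 0.392 and 0.854 CPM in wild-type A5-positive libraries. Its change was 1.69 ± 0.83 (edgeR adjusted p = 0.358). Over all genes 9.04% did not overlap in this direction. Stab1 was lower in the RORγt-deficient libraries, as 9.01% of all genes were without overlap, with a change of -1.51 ± 0.42 (edgeR adjusted p = 0.198). With the block Stab1 fell by 1.53 ± 0.29 (edgeR adjusted p = 0.0360) and was the only member to pass, where 4.02% of all genes did (1.76% lower). That call was lost without any 1 of 8 libraries, namely the 3 RORγt-deficient A5-positive ones, RORγt-deficient A5-negative 2, wild-type A5-positive 1 or 2 and wild-type A5-negative 2 or 3 (edgeR adjusted p up to 0.147).

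In A5-negative cells none of 41 members passed (0.006% of all genes passed), and none had an unadjusted p under 0.05 in edgeR (5.09% of all genes did), nor an adjusted p under 0.05 in DESeq2 (0.126%) or voom (0.042%). The median change was -0.43, but 1.18 without wild-type A5-negative library 1. Ptprc changed by -0.04 ± 0.78 (edgeR adjusted p = 0.993), Lyz2 by -0.62 ± 0.88 (edgeR adjusted p = 0.863), Mrc1 by -0.44 ± 0.79 (edgeR adjusted p = 0.897) and C1qa by -0.65 ± 0.81 (edgeR adjusted p = 0.846). Cd74 had -0.70 ± 0.73 (edgeR adjusted p = 0.818), H2-Aa -0.83 ± 0.79 (edgeR adjusted p = 0.809), Cd207 -2.24 ± 1.73 (edgeR adjusted p = 0.780) and Lck -0.84 ± 0.39 (edgeR adjusted p = 0.779). Lck was the only member without overlap, lower in RORγt-deficient libraries (8.26% of all genes), and 0 members were higher without overlap (7.33%). Number by number the direction turned. All 43 members were lower in the RORγt-deficient library for number 1, while 31 of 41 were higher for number 2 and 41 of 42 for number 3, with median log2 ratios of -1.17, 0.14 and 1.03.

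No difference of the A5 effect between genotypes passed for any of 41 members, nor for any gene (0% of 16677). At an unadjusted p under 0.05 there was 1 member (2.75% of all genes), and DESeq2 (0.048%) and voom (0%) called 0. The median interaction, the A5 change in RORγt-deficient minus that in wild-type mice, was 0.73. With wild-type A5-negative library 1 left out it was -0.85. For Ptprc it was 0.54 ± 1.12, for Lyz2 1.2 ± 1.25, for Mrc1 0.59 ± 1.13, for C1qa 0.59 ± 1.16, for Cd74 0.83 ± 1.03, for H2-Aa 0.93 ± 1.12 and for Cd207 1.81 ± 2.37. The error of each of these is as large as the change or close to it, so differences of this size were not resolved with 3 libraries a group. Lck, described above, had an interaction of 1.83 ± 0.54, larger than its error, and did not pass after adjustment.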

How the data were processed

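RNA was sequenced from 12 sorted cell pools, prepared with SMART-Seq v4 and ThruPLEX kits per the labels' protocols. Reads were processed with bcl2fastq, Trimmomatic 0.36, STAR and featureCounts on mm10 (GRCm38), per the submitters' processing notes. The annotation release, strand setting and handling of multi-mapping reads were not given in the sources used here. Values in the deposited file are raw counts of reads for each gene symbol, which the authors did not normalize. Of 55341 symbols, 26 had become dates and were left out (0.110% to 0.128% of counts), and the other 55315 are all in GENCODE M21, which gave positions.

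CPM values scale the counts of each library to a common total. Counts were tested in R 4.3.3 with edgeR 4.0.16 (TMM factors of 0.919 to 1.08, filterByExpr by group, quasi-likelihood F test, 1 model of 4 groups over 12 libraries, Benjamini-Hochberg adjustment within each of the comparisons). The SE was obtained from the change and its F value. Alternatives were RLE factors, DESeq2 1.42.0, testing without a filter, requiring a CPM of 5 in 3 libraries (the stricter filter), blocks by library number and by genotype and number, voom quality weights (limma 3.58.1) and leaving out each library. On counts simulated from these libraries, edgeR with and without the library number as a block recovered known changes in the wild-type A5 comparison. The counts were drawn gene by gene with no effect of library number, so they cannot show how genes that vary together behave. DESeq2, voom and the block by genotype and number were not run on them. The p-values rest on the spread among pools, not single mice. Depth limits (the 3 counts that a count of 0 allows) take in counting error alone, as reads are not independent molecules.

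The labels number the libraries 1 to 3 in each group without saying what a number stands for. Residuals over 7424 genes correlated at 0.167 to 0.756 for all 18 pairs with the same number, and at -0.683 to 0.347 for 36 pairs with different numbers. The numbers therefore pair the libraries, and members whose call changes with the number as a block are named. No 2 libraries were alike to within counting error (chi-square per degree of freedom at least 20.6 over 66 pairs).

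The members, 15 further marker lists (174 genes) and the tests were chosen with earlier results of these data known. Named with full values in each comparison were every member that passed and Ptprc, Lyz2, Cd207, Cd74, H2-Aa, C1qa, Mrc1, Cd3e and Lck, of which Cd3e was not tested. Genes outside the set were the sort markers, lists as sums and their members that passed, and the 10 genes that stood out most in the library with the highest sum. Csf1r, Apbb1ip, Ccl22, Pecam1 beside Stab1 and the genes given for their low levels lie outside this rule and were named after their values were seen. Some items that the rule took are left out of the text.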

Additional observations from a re-analysis of the deposited data

How the results depend on the processing

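Number of members called, with the share of all genes called in brackets. For the A5 effect in wild-type mice (0 in the fit reported, 3.45%) it was 7 with DESeq2 (8.72%), 22 with no filter (2.9%), 2 with the replicate block (14.4%), 1 (Stab1) with the block by genotype and number (14.4%), 1 with voom (5.93%), and 0 to 5 without single libraries, with or without the block (0.89% to 17.7%). In RORγt-deficient mice (1, 5.52%) it was 3 with DESeq2 (10.3%), 3 with no filter (3.74%), 0 with the stricter filter (7.33%), under which Lck is not tested, and 1 to 17 without single libraries (2.7% to 17.9%). Averaged over genotypes (19, 18.2%) it was 32 with DESeq2 (25.5%), 36 with no filter (10.1%), 29 with the replicate block (33.9%), 12 with the block by genotype and number (32.6%), 2 with voom (23.7%) and 2 to 34 without single libraries (10.2% to 32.5%). For genotype in A5-positive cells (0, 0.006%) it was 1 with DESeq2 (2.96%), 1 with no filter (0.207%), 1 with the replicate block (4.02%) and 0 to 1 without single libraries (0.00569% to 7.21%). Genotype in A5-negative cells and the interaction gave 0 under all of these. The blocks by number changed no calls of members other than those named in the report. Where no cause is named, the cause was not tested.

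Changes of sign. With voom they were 0.87 for Cd207 in the wild-type A5 effect and 0.37 for Cd207 in genotype in A5-positive cells. For genotype in A5-negative cells voom gave 0.54 as the median, 0.79 for Ptprc, 0.48 for Lyz2, 0.58 for Mrc1, 0.077 for Stab1, 0.37 for C1qa, 0.24 for Cd74, 0.19 for H2-Aa and 0.30 for Cd207. For the interaction it gave -0.34 as the median, -0.23 for Ptprc, -0.16 for Lyz2, -0.34 for Mrc1, -0.45 for C1qa and -0.038 for Cd74. The replicate block gave -0.033 for Mrc1 (genotype in A5-positive cells) and 0.11 for Ptprc (genotype in A5-negative cells).

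Ranges without single libraries, with and without the block, that cross 0. The A5 effect of Cd207 ran from -3.67 to 3.39 in wild-type mice, -1.53 to 2.97 in RORγt-deficient mice and -1.12 to 2.41 averaged, and that of Cd74 from -2.04 to 0.046 in wild-type and -1.05 to 0.0015 in RORγt-deficient mice. For genotype in A5-positive cells the median ran from -0.42 to 0.74, Ptprc from -0.15 to 1.10, Lyz2 from -0.33 to 1.05, Mrc1 from -0.54 to 1.02, C1qa from -0.77 to 0.48, Cd74 from -0.37 to 0.69, H2-Aa from -0.40 to 0.68 and Cd207 from -3.39 to 2.81. For genotype in A5-negative cells the median ran from -0.95 to 1.18, Ptprc from -0.59 to 1.35, Lyz2 from -1.19 to 1.10, Mrc1 from -1.0 to 1.19, Stab1 from -0.66 to 0.32, C1qa from -1.22 to 0.97, Cd74 from -1.21 to 0.78, H2-Aa from -1.38 to 0.73 and Cd207 from -3.84 to 1.71. For the interaction the median ran from -0.85 to 1.27, Ptprc from -0.85 to 1.10, Lyz2 from -0.53 to 1.76, Mrc1 from -1.03 to 1.22, C1qa from -1.04 to 1.15, Cd74 from -0.63 to 1.43, H2-Aa from -0.63 to 1.56 and Cd207 from -2.05 to 5.11.

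Limits. Summed member levels moved little between CPM of totals, TMM and RLE scaling. The groups hold 3 libraries each, 1 of which carried most leukocyte RNA in wild-type A5-negative cells, so means and tests there rest on it. Replicates are pools of mice, and what a library number stands for is not stated. With gene-level counts of unstated strand, reads from overlapping genes cannot be told apart. Depth limits Cd3e, Nkg7 and Cx3cr1, which have few counts.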

Other observations

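Many other leukocyte genes also fell in A5-positive cells when the A5 effect was averaged over genotypes, where 6.35% of all genes fell and 11.9% rose. Of 23 further pan-leukocyte genes 12 fell, of 22 further macrophage and monocyte genes tested 9 fell and 1 rose, and of 12 dendritic cell genes tested 7 fell (edgeR adjusted p under 0.05). Among them were Cd209a, a lectin of monocyte-derived dendritic cells (-2.88 ± 0.64, edgeR adjusted p = 0.0112), Ccr7 (-2.46 ± 0.65, edgeR adjusted p = 0.0238), and Siglec1, a sialic acid receptor of macrophages (-2.32 ± 0.65, edgeR adjusted p = 0.0312). None of 7 further MHC class II pathway genes passed. With the library number as a block, where 15.5% of all genes fell and 18.5% rose, the counts were 18 pan-leukocyte genes lower, 13 macrophage and monocyte genes lower and 2 higher (Gpnmb and Lyve1), and 9 dendritic cell genes lower. In that fit 1 MHC class II pathway gene passed, namely Ctss, a protease that cuts the invariant chain, which fell by 1.33 ± 0.42 (edgeR adjusted p = 0.0329), and 1 of 4 B cell genes tested, Cd79b, fell by 2.21 ± 0.72 (edgeR adjusted p = 0.0344). Of 7 neutrophil-list genes tested 3 fell, namely Csf3r, Trem1 and Clec4d, which monocytes also express. Klrk1, an activating receptor of NK and T cells, fell by 3.14 ± 0.68 (edgeR adjusted p = 0.00985), with 0.0892 to 0.271 CPM in A5-positive libraries and 0.170 to 3.99 CPM in A5-negative ones. These counts depend on single libraries as those of the members do. The summed CPM of the 24 further macrophage and monocyte genes differed less between libraries than that of the members. It was 967, 653 and 700 CPM in RORγt-deficient A5-positive libraries, against 951, 607 and 1004 CPM in RORγt-deficient A5-negative libraries. In wild-type mice it was 666, 677 and 710 CPM in A5-positive libraries, against 881, 581 and 628 CPM in A5-negative libraries. A sum leans on its most abundant genes. The median change of the 22 genes of this list that were tested was -1.70, averaged over genotypes.

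Gpnmb, a glycoprotein of macrophages, melanocytes and other cells, rose against this trend. It had 182, 112 and 129 CPM in RORγt-deficient A5-positive libraries, against 25.8, 23.8 and 20.8 CPM in RORγt-deficient A5-negative libraries. In wild-type mice it had 58.0, 88.8 and 98.3 CPM in A5-positive libraries, against 25.2, 30.6 and 14.7 CPM in A5-negative libraries. The averaged rise was 2.19 ± 0.20 (edgeR adjusted p = 2.77e-05). Trbc2, a constant gene of the T cell receptor beta chain, rose by 0.62 ± 0.20 (edgeR adjusted p = 0.0495), while the other 4 T cell list genes tested did not pass.

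Ccl22, a chemokine of mature dendritic cells and Langerhans cells, was highest in wild-type A5-positive library 3 (12.7 CPM) and RORγt-deficient A5-negative library 1 (10.03 CPM), both among the 4 libraries with high Cd207, and had 1.03 CPM in RORγt-deficient A5-positive library 3 and 3.23 CPM in wild-type A5-negative library 1. Of genes whose mean log2 CPM reached 1, those that stood out most in wild-type A5-negative library 1 were Gpr171, Fcrls, Alox5ap, Havcr2, Ly86, Cd300lb, P2ry6, B4galt5, Napsa and P2ry10, at 2.52 to 3.52 times their highest level in any other library. Gpr171, a G protein-coupled receptor, had 30.9 CPM there and at most 8.78 CPM elsewhere.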
